A study of Mus musculus with 6 samples.

Results

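The subject here is the set of genes that encode the subunits of integrins and laminins, measured in V720, a murine breast cancer line of mammary epithelium by its labels. A probe set was taken when its single annotated gene symbol began with Itga, was Itgb1 to Itgb8, or was a laminin α (Lama), β (Lamb) or γ (Lamc) gene. This gave 73 of 45101 probe sets, which stand for 34 of 18193 genes: 24 integrin genes (16 α and 8 β) and 10 laminin genes (5 α, 3 β and 2 γ). Itga11 and Itgad were not analysed here. The cultures received vehicle or 1 µM PD0332991 (palbociclib), an inhibitor of the cyclin D-dependent kinases CDK4 and CDK6, for 24 h. Both groups held 3 samples of the same line in the same serum-containing medium, each on its own Affymetrix expression array, and the design text calls them biological triplicates. A single cultured line was used, and the labels name no driver gene or genotype for it.

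Integrins are the main receptors through which cells hold on to extracellular matrix. Each is a pair of an α and a β subunit that spans the membrane, and the α chain largely sets the ligand while the β tail recruits talin, kindlin and the actin cytoskeleton. Laminins are cross-shaped trimers of an α, a β and a γ chain that polymerize into the basement membrane. Mammary epithelial cells rest on laminin and bind it mainly through integrins α3β1, α6β1 and α6β4, the last of which anchors hemidesmosomes.

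The median intensity of all probe sets was 71.4 to 72.9 on the vehicle arrays and 69.8 to 71.2 on the PD0332991 arrays. The array median used as a cut from here on is that of the single-symbol probe sets, 100.1 to 103.6 over the 6 arrays. The epithelial markers were bright except Krt19, which was at 1.00 to 2.27 on every array, and 9 of 10 were not below the array median on all 6 arrays. Of 9 basal or myoepithelial markers, 6 were below it on every array, among them Krt5, Krt14 and Krt17, and Acta2, Mylk and Oxtr were not. So were 8 of 8 endothelial, 7 of 9 fibroblast and 5 of 6 platelet markers. All 9 proliferation genes fell. Mki67 read 4197 ± 112 with vehicle and 1037 ± 72.4 with PD0332991 (SD, n = 3 each). The hybridization spike-ins averaged 9.76 (log2) on vehicle replicate 1 and 9.95 to 10.06 on the other 5 arrays. Centring each array on them moves the median log2 fold change of all genes from 0.00 to -0.12 (-0.04 when vehicle replicate 1 is also left out). Rises of subunit genes are therefore given below with that setting beside them.

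With PD0332991, 11 of the 34 subunit genes rose and none fell in limma's test at an adjusted p of 0.05, and the rises were small. The genes that rose were Itga3, Itga1, Itgb6, Lamb3, Itgav, Itgb1, Lamb1, Lamc1, Itgb5, Itgb4 and Itgb8. In such bulk RNA, more cells of a kind and more RNA per cell cannot be told apart. Higher subunit genes made up 32.4% of the list, where 9.81% of all 18193 genes were called higher and 11.2% lower. The median log2 fold change of the 34 genes was 0.14, and that of all genes 0.00. Fold changes are differences of log2(intensity + 16), which understates the change of dim genes. The groups did not overlap in 15 of the 34 genes (44.1%, against 38.9% of all genes), of which 14 were higher with PD0332991. Under spike-in centring 3 of the 34 rose, namely Itga3, Itga1 and Itgb6, and none fell. The same 3 rose when vehicle replicate 1 was also left out.

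**Figure D1:**
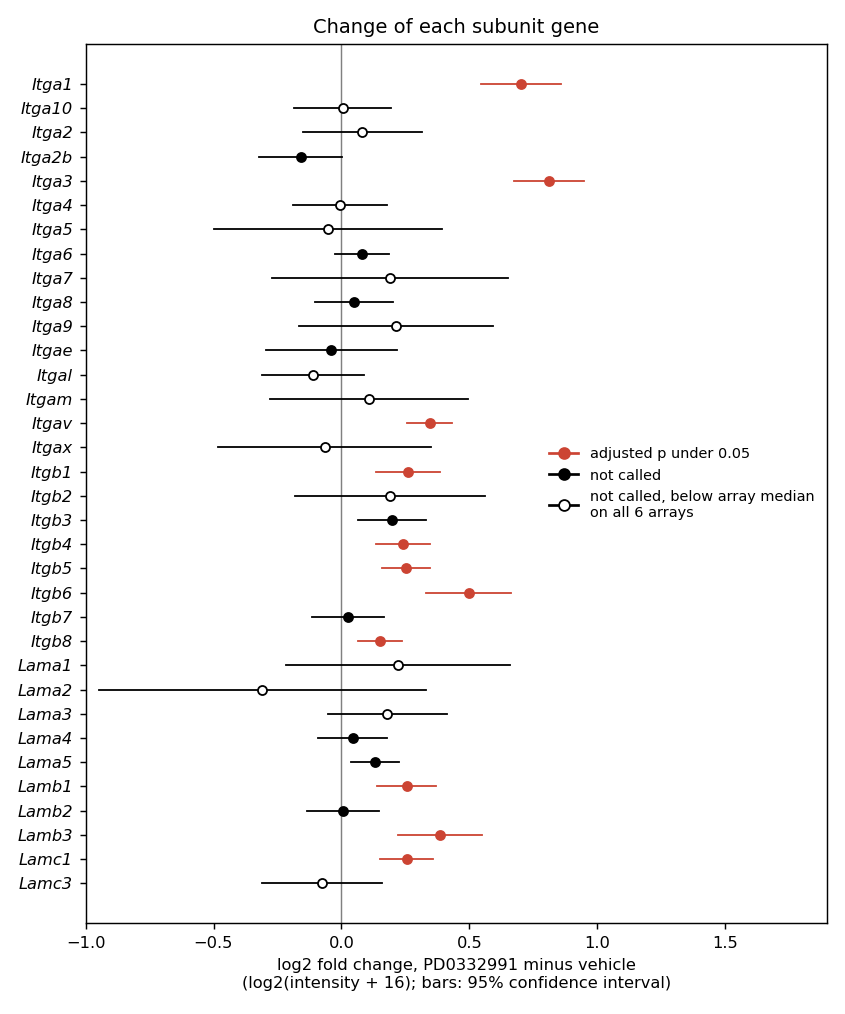
Log2 fold change of each of the 34 subunit genes (x axis, PD0332991 minus vehicle, log2(intensity + 16)) with its 95% confidence interval from limma, red where the adjusted p was under 0.05 and open where the gene was below the array median on all 6 arrays. The 11 called genes lie between 0.15 (Itgb8) and 0.81 (Itga3), and the 14 open points between -0.31 and 0.22. Itga1 is a filled point through its PD0332991 arrays only, since its vehicle values were below the array median.

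Among the subunits of laminin-binding integrins, the α3 chain rose most. Itga3 (chromosome 11), which pairs with β1 and binds the laminins of epithelial basement membrane, had intensities of 1198, 1222 and 1108 on the vehicle arrays and 1997, 2058 and 2176 on the PD0332991 arrays. The lowest PD0332991 array was well above the highest vehicle array. The gene was 1.76-fold higher (log2 fold change 0.81, SE 0.06, limma adjusted p = 0.000464), and 0.69 on the log2 scale under spike-in centring (limma adjusted p = 0.000724). Averaging its probe sets gave 0.48 (limma adjusted p = 0.00787). Of its 3 probe sets 2 were called higher, and the dimmest changed by 0.14 (log2).

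Itga6 encodes α6, the shared partner of β1 and β4 in laminin binding. Its intensities were 5556, 5968 and 5939 with vehicle and 6254, 6065 and 6145 with PD0332991. The groups did not overlap, but the difference of 0.08 (95% confidence interval -0.02 to 0.19) was not called (limma adjusted p = 0.255). Itgb4, the β4 chain of hemidesmosomes, whose long tail binds plectin, read 565.4, 585.6 and 607.0 with vehicle and 674.3, 711.0 and 698.1 with PD0332991. It rose 1.18-fold (log2 fold change 0.24, SE 0.04, limma adjusted p = 0.0140). That call ended without PD0332991 replicate 2 (limma adjusted p = 0.0521) and under spike-in centring (limma adjusted p = 0.573). Itga7, the laminin receptor of muscle, was dim, at 13.1 to 31.5 over the 6 arrays with groups that overlapped. Its log2 fold change of 0.19 was not called, though without vehicle replicate 1 it was 0.40 (limma adjusted p = 0.0450).

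Itgb1 encodes β1, the partner of most α chains. It had intensities of 3032, 3167 and 3242 with vehicle and 3724, 3623 and 3980 with PD0332991, and it rose 1.20-fold (log2 fold change 0.26, SE 0.05, limma adjusted p = 0.0185). All 6 of its probe sets had a positive log2 fold change, from 0.04 to 0.43, and 4 were called. The call of the gene ended when vehicle replicate 1 or 2 was left out (limma adjusted p = 0.0601 and 0.0561), when PD0332991 replicate 1 was (0.0538) and under spike-in centring (0.501).

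Of the collagen receptors, the α1 chain rose. Itga1 (chromosome 13), which pairs with β1 and prefers the network-forming collagen of basement membranes, read 78.8, 87.3 and 94.3 with vehicle and 145.7, 152.5 and 154.6 with PD0332991. No vehicle array reached the PD0332991 arrays. The vehicle values were below the array median (100.1 to 103.6), so Itga1 was not classed as dim only through its PD0332991 arrays. The gene was 1.63-fold higher (log2 fold change 0.70, SE 0.06, limma adjusted p = 0.00136; 0.58 and limma adjusted p = 0.00235 under spike-in centring). Its second, dimmer probe set went from 21.6, 22.9 and 28.7 to 56.2, 64.5 and 58.8 and was also called. The other collagen-binding chains, α2 (Itga2) and α10 (Itga10), were below the median on all arrays and overlapped between groups, with log2 fold changes of 0.08 and 0.00.

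The αv chain and 3 of its 4 β partners beyond β1 rose. These receptors bind vitronectin, fibronectin and the latent form of TGF-beta through a short RGD (arginine-glycine-aspartate) motif. Itgav read 4265, 4431 and 4459 with vehicle and 5503, 5607 and 5618 with PD0332991, groups far apart for their spread. It rose 1.27-fold (log2 fold change 0.35, SE 0.04, limma adjusted p = 0.00208), but its call ended under spike-in centring (0.23, limma adjusted p = 0.253) and with the mean of its 5 probe sets (0.20, limma adjusted p = 0.0549), 3 of which were dim.

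Itgb6 (chromosome 2), an epithelial chain whose pairing with αv activates latent TGF-beta, read 246.0, 287.4 and 277.4 with vehicle and 395.2, 369.6 and 398.4 with PD0332991. It was 1.41-fold higher (log2 fold change 0.50, SE 0.07, limma adjusted p = 0.00540), and 0.38 (limma adjusted p = 0.0428) under spike-in centring. The second Itgb6 probe set, a dimmer one, changed by 0.19 (log2) and was not called. Itgb5, of the vitronectin receptor αvβ5, read 1585, 1653 and 1651 with vehicle and 1931, 1912 and 1995 with PD0332991. These are values of its brightest probe set, which rose 1.19-fold (log2 fold change 0.25, SE 0.04, limma adjusted p = 0.00779) and is of a type whose probes can match other transcripts. Without such probe sets the log2 fold change was 0.22 and the call ended (limma adjusted p = 0.0614), as it did under spike-in centring (limma adjusted p = 0.520). All 4 probe sets of Itgb5 had groups that did not overlap, as did 36.7% of all probe sets. Their log2 fold changes were 0.17 to 0.25, and 2 of the 4 were called.

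Itgb8, the β8 chain, another activator of latent TGF-beta with αv, read 2881, 2853 and 2899 with vehicle and 3212, 3114 and 3265 with PD0332991. This was the smallest called rise, of 1.11-fold (log2 fold change 0.15, SE 0.04, limma adjusted p = 0.0324). Leaving out any of the 6 arrays ended the call (limma adjusted p from 0.0552 to 0.0946), and the value was 0.03 under spike-in centring. Itgb3, of the αvβ3 receptor and of the platelet integrin, read 524.7, 542.9 and 531.3 with vehicle and 590.0, 592.6 and 660.0 with PD0332991. The groups did not overlap, and the difference of 0.20 (95% confidence interval 0.06 to 0.33) missed the threshold at a limma adjusted p = 0.0529. It passed with quantile normalization, a pseudocount of 64, bright genes only, and limma's trend and robust options (limma adjusted p from 0.00506 to 0.0261), and was 0.08 under spike-in centring (limma adjusted p = 0.734). The second Itgb3 probe set, a dim one with overlapping groups, went the other way (log2 fold change -0.09, limma adjusted p = 0.696 over probe sets). With the mean of both probe sets the Itgb3 log2 fold change was 0.05 and not called.

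**Figure D2:**
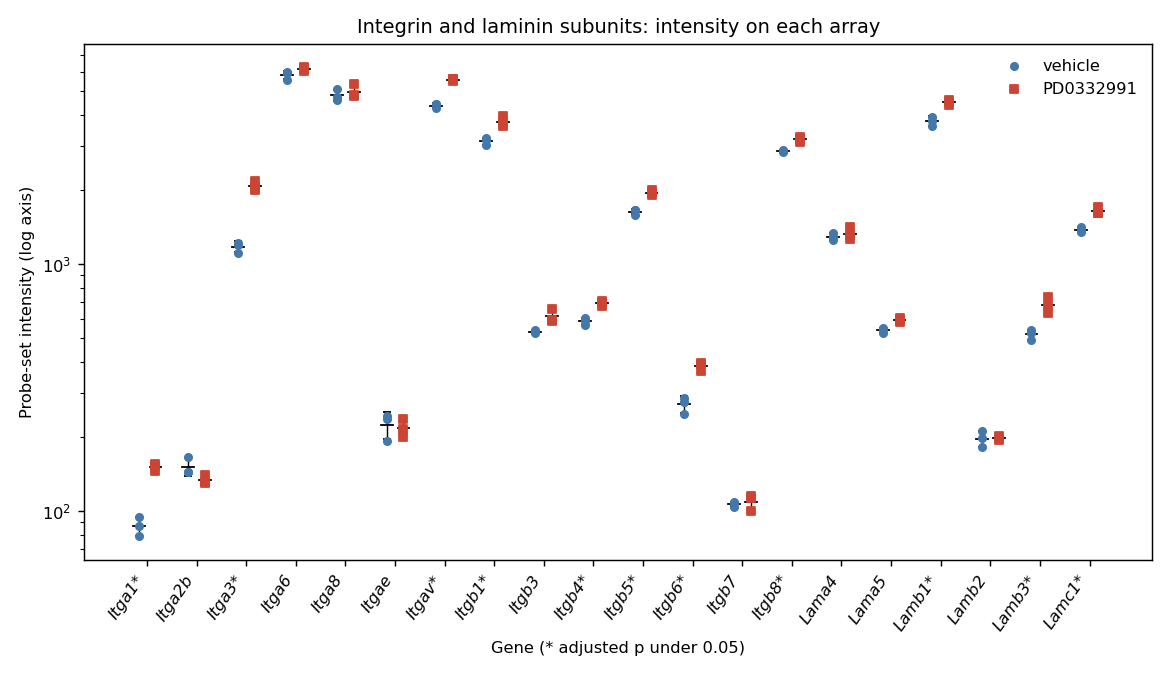
Probe-set intensity on each array (y axis, log axis) for the 20 subunit genes that were not below the array median on all 6 arrays, with circles for vehicle, squares for PD0332991, and a bar at the mean with its SD (n = 3 each). Itga3 shows the widest gap between the groups, from 1176 ± 60.0 to 2077 ± 91.1. The heights of different genes cannot be compared, since each has its own probes.

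Other RGD receptors did not pass the test. Itga8, whose product pairs with β1 and binds nephronectin, was bright, at 4624, 5098 and 4746 with vehicle and 5341, 4840 and 4804 with PD0332991. The groups overlapped, and the log2 fold change was 0.05 (95% confidence interval -0.10 to 0.20). Itga5, the α chain of the classical fibronectin receptor, was below the array median on all 4 probe sets. Its brightest read 13.9 to 19.7 with vehicle and 8.23 to 23.1 with PD0332991. A dimmer one went from 3.90, 8.01 and 5.21 to 13.4, 11.9 and 24.3, with groups that did not overlap (log2 fold change 0.57, limma adjusted p = 0.0591 over probe sets). When all 4 were averaged, the Itga5 log2 fold change turned from -0.05 to 0.16 (limma adjusted p = 0.0400).

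None of the integrins of blood cells was called, and most were dim, with Itgb7, Itgae and Itga2b as the exceptions. Itgal, Itgam and Itgax, the α chains that pair with β2 in leukocytes, and Itgb2 itself read 1.73 to 32.3 over the 6 arrays. Itga4, of lymphocyte homing, was below the array median on each of its 5 probe sets. Itgb7, the partner of α4 and αE, read 104.2 to 108.5 with vehicle and 99.8 to 114.6 with PD0332991. Itgae, the αE chain that binds E-cadherin, had a log2 fold change of -0.04 on its brighter probe set. Its dimmer one fell from 72.6, 85.3 and 76.2 to 50.4, 60.8 and 60.9 (log2 fold change -0.36, limma adjusted p = 0.0340 over probe sets), which made it the only subunit probe set called lower. Leaving out any 1 array ended that call. Itga2b, the platelet α chain, read 166.1, 143.8 and 143.7 with vehicle and 139.9, 129.9 and 130.5 with PD0332991, the one gene whose groups stood apart with PD0332991 below. Its log2 fold change of -0.16 was not called (limma adjusted p = 0.157). Itga9 was dim and not called, at 33.5 to 62.5 over all arrays.

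Markers of leukocytes were measured beside these genes. Of 12 markers 4 were higher and 1 lower, where 9.81% and 11.2% of all genes were. Of the 12, 8 were below the array median on all arrays, and their summed intensity was 670.9 to 730.7 with vehicle and 765.7 to 794.8 with PD0332991. On average Cd68 read 230.1 with vehicle and 307.7 with PD0332991, and Fcer1g 123.1 and 144.0. The pan-leukocyte marker Ptprc read 11.6 and 18.2, and Tyrobp 12.8 and 17.8. These 4 were higher, and Laptm5 was lower, at 114.0 and 83.7 (limma adjusted p = 0.0484). The lymphocyte markers Cd3e, Cd3g and Cd79a read 1.33 to 6.12 on average. The part of these markers in the subunit values was not tested. With any 1 array left out 1 to 3 of the 12 were higher, and under spike-in centring none was higher and 1 was lower.

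In the laminins, the β1, β3 and γ1 chains rose, while none of the 5 α chains passed the test. Lamb1, the β chain of the most widespread laminins, read 3611, 3948 and 3808 with vehicle and 4538, 4415 and 4612 with PD0332991. It rose 1.19-fold (log2 fold change 0.25, SE 0.05, limma adjusted p = 0.0146). All 4 Lamb1 probe sets had groups that did not overlap, as did 36.7% of all probe sets. Their log2 fold changes were 0.14 to 0.31, and 2 of the 4 were called. Leaving out PD0332991 replicate 1 or 3 ended the call of the gene (limma adjusted p = 0.0518 and 0.0514). Lamc1, the γ1 chain that joins β1 in these trimers, read 1362, 1418 and 1345 with vehicle and 1707, 1610 and 1613 with PD0332991. Its rise was of the same size, 1.19-fold (log2 fold change 0.25, SE 0.04, limma adjusted p = 0.0114), and held without each array in turn. The second Lamc1 probe set, a dim one, changed by 0.16 (log2) with groups that overlapped and was not called (limma adjusted p = 0.227 over probe sets).

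Lamb3, the β3 chain of the epithelial laminin that anchors hemidesmosomes, had the largest log2 fold change of the 10 laminin genes. It read 523.5, 492.6 and 539.1 with vehicle and 675.4, 636.2 and 736.7 with PD0332991 and was 1.31-fold higher (log2 fold change 0.39, SE 0.07, limma adjusted p = 0.0124). The call held without each array in turn. Under spike-in centring the log2 fold changes of Lamb3, Lamb1 and Lamc1 were 0.27, 0.13 and 0.13, and none was called (limma adjusted p = 0.214, 0.508 and 0.519). Lama3, the α chain that joins β3, was dim, at 21.7 to 29.0 with vehicle and 27.2 to 35.7 with PD0332991. The groups overlapped and the difference was not called.

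Lama5 and Lama4, the α chains that join β1 and γ1 in epithelial and in vascular basement membranes, were measured well above the array median. Lama5 read 524.9, 551.4 and 543.1 with vehicle and 603.1, 595.5 and 579.9 with PD0332991. Its groups did not overlap, and the log2 fold change of 0.13 (95% confidence interval 0.04 to 0.22) narrowly missed the threshold (limma adjusted p = 0.0596). It passed in the 4 settings named for Itgb3 and with array medians centred (limma adjusted p from 0.0103 to 0.0478), and was 0.01 under spike-in centring (limma adjusted p = 0.963). Lama4 read 1248, 1332 and 1284 with vehicle and 1412, 1263 and 1312 with PD0332991, overlapping groups with a log2 fold change of 0.04. Lamb2, which can replace β1, read 181.7 to 210.4 with vehicle and 194.0 to 201.0 with PD0332991. Lama1, Lama2 and Lamc3 were dim and had groups that overlapped.

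Each probe set was also tested on its own, since the rule chooses probe sets. Of the 73, 19 were higher and 1 lower, where 7.87% of all 34945 probe sets with a single symbol were called higher and 9.70% lower. The 19 belong to the same 11 genes that were called higher. The groups did not overlap in 35 of the 73 (47.9%, against 36.7% of all), and 32 of these were higher with PD0332991. Leaving out vehicle replicates 1 to 3 in turn left 9, 11 and 12 probe sets higher, and leaving out PD0332991 replicates 1 to 3 left 10, 14 and 12. Under spike-in centring 5 were higher.

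**Figure D3:**
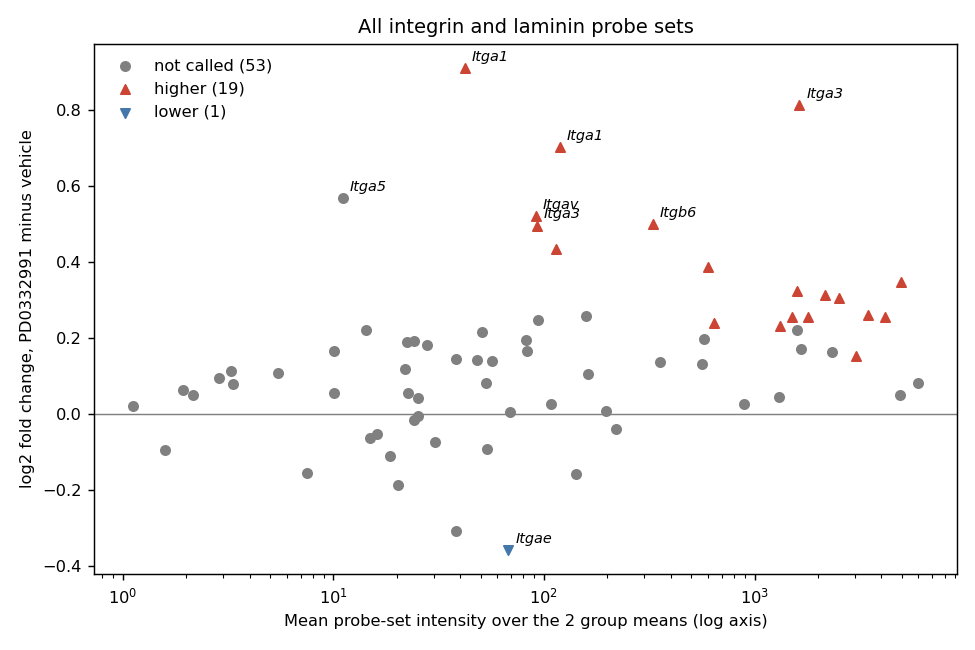
Log2 fold change (y axis, PD0332991 minus vehicle) against the mean intensity of the group means (x axis, log axis) for the 73 subunit probe sets, with triangles for the 19 called higher and the 1 called lower. Most probe sets of low intensity were not called, and genes with several probe sets appear several times.

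The promoters of Itga3, Itga1 and Itgb6 are shown because these genes kept their call in every alternative that gave a value. Each sequence is the 250 bases before the first start site that the RefSeq table (GRCm38.p6) lists for the gene (Itga3 and Itgb6 have a further start), read along the gene: Itga3 at chr11:95076715-95076964, Itga1 at chr13:115101965-115102214 and Itgb6 at chr2:60722604-60722853, all on the minus strand. Capitals mark matches to the GC box GGGCGG.
Itga3: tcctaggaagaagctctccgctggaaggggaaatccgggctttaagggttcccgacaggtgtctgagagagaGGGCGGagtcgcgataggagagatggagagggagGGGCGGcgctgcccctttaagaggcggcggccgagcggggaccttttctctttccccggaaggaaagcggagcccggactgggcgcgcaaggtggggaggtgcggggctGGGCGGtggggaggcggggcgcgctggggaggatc
Itga1: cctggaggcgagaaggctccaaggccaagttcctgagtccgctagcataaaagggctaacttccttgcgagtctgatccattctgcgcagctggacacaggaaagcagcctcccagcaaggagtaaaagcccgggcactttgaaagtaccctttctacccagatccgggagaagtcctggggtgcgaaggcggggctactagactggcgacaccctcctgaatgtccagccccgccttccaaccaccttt
Itgb6: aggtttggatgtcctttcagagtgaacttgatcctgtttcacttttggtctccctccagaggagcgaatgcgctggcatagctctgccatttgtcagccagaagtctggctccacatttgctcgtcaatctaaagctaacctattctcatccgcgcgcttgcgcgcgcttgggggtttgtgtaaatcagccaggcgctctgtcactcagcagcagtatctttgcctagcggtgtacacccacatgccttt
The table held 22 of the 34 genes, among them 9 of the 11 that rose. The windows were searched on both strands for GGGCGG and for core motifs of AP-1 (TGANTCA), TEAD (GGAATG) and E2F (TTTNNCGC), none of which contains another. Itga3 held 3 GC boxes and neither of the other 2 promoters held any of the 4 motifs. Of the 9 risen genes, 4 held a GC box, 1 (Itgb1) the TEAD core, and none the AP-1 or E2F core. Over all 27025 promoters of this length the shares were 32.9%, 12.6%, 6.9% and 4.4%. A match in these letters is a description of the window and not a binding site.

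Genes that work with the subunits were counted from 4 lists, each to be read against the 9.81% of all genes called higher and the 11.2% called lower. These shares belong to the main fit, where 1785 of all 18193 genes were higher. Counts with an array left out are to be read against 1096 to 1252 higher genes, and those under spike-in centring against 244. Among genes of the adhesion machinery inside the cell, 8 of 36 were higher and 2 lower, and the median was 0.11 on the log2 scale. Cav1, the caveolin that links integrins to membrane signalling, read 895.3, 777.2 and 831.5 with vehicle and 1220, 1359 and 1400 with PD0332991 (log2 fold change 0.66, SE 0.08, limma adjusted p = 0.00301). Tns4, a tensin that binds β tails, was 1.31-fold higher, a call that ended under spike-in centring (0.27 on the log2 scale, limma adjusted p = 0.187). Tln2, one of the talins that activate integrins, fell from 640.5, 693.6 and 659.8 to 443.7, 460.2 and 468.9 (log2 fold change -0.52, SE 0.05, limma adjusted p = 0.00112). The mean of its probe sets gave a smaller value, -0.20 (limma adjusted p = 0.0220). The adaptor gene Tgfb1i1, dim at 55.1 to 77.0 over the 6 arrays, was 1.21-fold lower (limma adjusted p = 0.0129). There were 5 higher genes without vehicle replicate 1, vehicle replicate 2 or PD0332991 replicate 2, and 1 (Cav1) under spike-in centring.

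Basement membrane genes other than laminins had 7 of 23 higher and none lower, with a median of 0.15, where 9.81% of all genes were higher and 11.2% lower. Col18a1, the collagen that gives rise to endostatin, read 691.1, 734.0 and 693.2 with vehicle and 1068, 1032 and 1184 with PD0332991 (log2 fold change 0.62, SE 0.06, limma adjusted p = 0.00186). Tinagl1, a matricellular protein of basement membranes, was 1.49-fold higher. The count was 4 without vehicle replicate 1, vehicle replicate 2 or PD0332991 replicate 3, and 3 without PD0332991 replicate 1 (with 1 gene then lower) or 2. Under spike-in centring it was 2, namely Col18a1 and Tinagl1.

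Of 20 genes for laminin receptors other than integrins and their partners in hemidesmosomes or tetraspanin webs, 5 were higher and 2 lower, with a median of 0.07 (-0.05 under spike-in centring). Of all genes, 9.81% were higher and 11.2% lower, and 2 of 20 is near that lower share. Cd151, the tetraspanin that binds α3β1 and α6 integrins, read 5533, 5544 and 5833 with vehicle and 6711, 7003 and 7085 with PD0332991 (log2 fold change 0.30, SE 0.04, limma adjusted p = 0.00622), and Sdc2, a heparan sulfate proteoglycan, was 1.35-fold higher (log2 fold change 0.44, or 0.25 with the mean of its probe sets). Pomt1, which starts the sugar chain of dystroglycan, and Dmd, which encodes dystrophin, were 1.18-fold and 1.13-fold lower. The call of Dmd ended without any 1 array, and that of Pomt1 without any of them but vehicle replicate 1. The higher count was 2 without any of vehicle replicates 1 to 3 or PD0332991 replicates 2 or 3, 3 without PD0332991 replicate 1, and none under spike-in centring, where neither Pomt1 nor Dmd was called.

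Other integrin ligands had 8 of 22 higher and none lower, with a median of 0.12, where 9.81% of all genes were higher and 11.2% lower. Ccn2, a matricellular ligand, was 1.58-fold higher, and Tnc, the matrix protein tenascin C, read 410.1, 366.7 and 398.2 with vehicle and 641.7, 597.9 and 646.8 with PD0332991 (log2 fold change 0.66, SE 0.06, limma adjusted p = 0.00113). The count was 7 without PD0332991 replicate 2 and 6 without any other array. Under spike-in centring 4 were higher, Ccn2 and Tnc among them, and the median was -0.003.

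**Figure D4:**
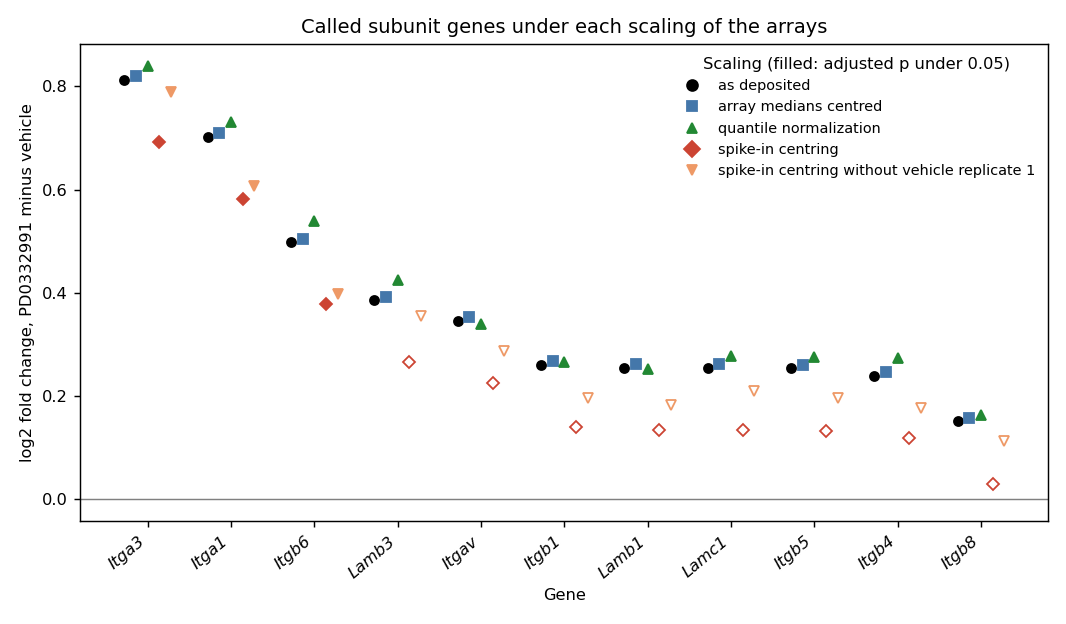
Log2 fold change (y axis, PD0332991 minus vehicle) of the 11 called subunit genes with the values as deposited, centred on array medians, quantile normalized, and centred on the spike-ins with all arrays or without vehicle replicate 1, filled where the adjusted p was under 0.05. Itga3, Itga1 and Itgb6 stay filled under each scaling, and all 11 values stay above 0.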

How the data were processed

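Biotin-labelled RNA of V720 cells was read on Affymetrix arrays, per the labels' protocols. The deposited table holds 1 linear intensity for each of 45101 probe sets on 6 arrays; how probes were summarised and scaled is not given in the sources used here. Control probe sets, 64 in all, were left out. The platform annotation gave a single symbol to 34945 of the remaining 45037, several to 932 and none to 9160, and all 34 subunit genes matched RefSeq by gene number.

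Values were taken as log2(intensity + 16). A gene was its probe set with the highest mean. PD0332991 and vehicle (3 arrays each) were compared with lmFit and eBayes of limma 3.58.1 (R 4.3.3), two-sided, without a replicate block or a filter on dim genes, and Benjamini-Hochberg adjustment over all 18193 genes or all 34945 probe sets at 0.05. A probe set is called dim when it was below the median of the single-symbol probe sets on all 6 arrays. The number of arrays limits the precision. The method was tested on simulated data with independent noise on each array and fewer changed genes than were called here. No shift of a whole array was simulated, so that test does not cover such shifts.

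All subunit genes are named; of each adhesion list, up to 4 genes with the smallest p are named, at most 2 higher and 2 lower. The members and lists were chosen with earlier results of these data known. Spike-in centring used 18 probe sets, and its combination with leaving out vehicle replicate 1 was chosen after the data were seen. Tables were joined with pandas 2.3.3 in Python 3.11.15 and plotted with matplotlib 3.10.9.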

Additional observations from a re-analysis of the deposited data

How the results depend on the processing

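The 11 called subunit genes kept a positive log2 fold change in every alternative that gave them a value, and 7 of them stayed called without each array in turn. The count of higher genes was 8 to 10 when an array was left out, with none lower, 3 under spike-in centring with or without vehicle replicate 1, and 5 at an adjusted p of 0.01. It was 12 with array medians centred, 13 with quantile normalization or a pseudocount of 64, and 14 with limma's trend and robust options, and 6 uncalled genes gained a call in at least 1 alternative. Without probe sets of the types that can match several transcripts, 8 of 31 genes were higher and 1 (Itgae) was lower. Itgb5 lost its call there, and Itgb4 and Lamb3 had no probe set left. For probe sets, the higher count was 9 to 14 when an array was left out, 8 with the replicate block, 5 under spike-in centring with or without vehicle replicate 1, and 6 at an adjusted p of 0.01, against 24 with quantile normalization or a pseudocount of 64 and 26 with trend and robust options. The lower count of 1 became 0 when any array was left out, with a pseudocount of 1, at an adjusted p of 0.01, and under spike-in centring without vehicle replicate 1. Itga5 turned to 0.16 with the mean of its probe sets. Same-numbered arrays of the groups did not deviate together (correlations of 0.01, -0.05 and 0.05), so the numbers were not taken to pair them; with the replicate block 8 of 34 genes rose (1 of 10 laminin genes), and Itgb8, Lamb1 and Lamc1 were not called (limma adjusted p = 0.0903, 0.0646 and 0.0558). Over all genes, 1785 were higher and 2035 lower, 244 and 1373 under spike-in centring, and 895 and 1152 with the replicate block. With an array left out, 1096 to 1252 of all genes were higher and 1326 to 1494 lower. The cause of these shifts was not tested. For the 14 dim genes the precision was low, the widest 95% confidence interval, that of Lama2, running from -0.95 to 0.33.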
